A study of Mus musculus with 9 samples.

Results

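Transcripts of the enzymes that make and remove prostaglandins and thromboxane were followed in mouse BMDC, which are dendritic cells, the immune cells that present antigen to T cells, obtained by culturing bone marrow. The 9 genes were taken by name: Pla2g4a, Ptgs1, Ptgs2, Ptges, Ptges2, Ptges3, Tbxas1, Hpgds and Hpgd. Each was found in exactly 1 of the 38887 rows of the count table, and 8 of the 9 held enough counts to be tested. Hpgd did not. Of the 9 RNA-seq libraries, 3 came from untreated cells, 3 from cells given LPA (lysophosphatidic acid, a small lipid that signals through G protein-coupled receptors) for 2 h and 3 from cells given LPA for 6 h. The labels give no genotype, strain or age of the mice, no LPA dose and no vehicle, and they state no time for the untreated cells. They also leave unsaid whether replicates were separate mice or separate dishes. The p-values therefore measure spread among these libraries alone, and that spread may be technical.

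Prostanoids are short-lived lipid signals made on demand from arachidonic acid. Cytosolic phospholipase A2 frees the acid from membranes, a cyclooxygenase turns it into prostaglandin H2, and a terminal synthase then sets the product: prostaglandin E2, prostaglandin D2 or thromboxane. In dendritic cells and macrophages, prostaglandin E2 is known for acting through cAMP on cytokine output and migration, and 15-hydroxyprostaglandin dehydrogenase, encoded by Hpgd, ends the signal by oxidizing it.

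Totals ran from 29628817 to 84596899 estimated counts per library, and 14363 genes were tested. All 12 dendritic cell marker genes were detected and tested. CPM are counts scaled to the same library size with TMM factors. Their summed level ran from 6970 to 8040 CPM in untreated cells, 7490 to 8260 at 2 h and 6480 to 7120 at 6 h. Most of the untreated sum was Cd74 (mean 3597 CPM), Itgax (1361 CPM), H2-Aa (1255 CPM) and H2-Ab1 (767.5 CPM). Among the others were Ccr7 at 338 CPM, Clec9a at 38.9, Zbtb46 at 18.0, Batf3 at 14.0, Flt3 at 13.3 and Xcr1 at 1.95. The 10 macrophage markers summed to 3860 to 3910 CPM untreated, 4130 to 4210 at 2 h and 4110 to 4320 at 6 h, without overlap between treated and untreated libraries. Csf1r alone gave 2251, 2523 and 2629 CPM of these sums on average. By the edgeR test described below, 1 of the 9 tested macrophage markers rose and 2 fell at 2 h. At 6 h 3 rose and 5 fell, where 26.4% of all tested genes rose and 25.7% fell. Of the 12 dendritic cell markers, 2 rose and 1 fell at 2 h, where 19.3% of all tested genes rose and 19.2% fell. At 6 h 2 of these 12 rose and 4 fell. Markers of mast cells and basophils, which are rich in cyclooxygenase and prostaglandin D synthase, summed to 19.4 to 24.6 CPM. Of those 11 genes, 4 (Fcer1a, Tpsb2, Tpsab1 and Cma1) were at 0 in every library. Most of the sum was Kit (mean 11.9 CPM untreated) and Gata2 (9.79 CPM). Cpa3 and Ms4a2 each had 1 count in untreated replicate 1 and 0 elsewhere. Platelet and megakaryocyte markers summed to 110 to 120 CPM untreated, 125 to 131 at 2 h and 123 to 128 at 6 h, again without overlap with untreated. The summed neutrophil markers were lower at 6 h (7.18 to 8.77 CPM) than in untreated cells (13.3 to 19.0 CPM), as were T and NK cell markers (0.343 to 0.526 against 1.41 to 1.55 CPM) and stromal markers (0.821 to 0.997 against 1.02 to 1.48 CPM). Most of the neutrophil sum was Csf3r, with a mean of 10.2 CPM untreated and 3.65 CPM at 6 h. Most of the T and NK sum was Cd8a (0.818 and 0.212 CPM) and Klrb1c (0.564 and 0.202 CPM), while Cd3g and Ncr1 were at 0 in every library. Most of the stromal sum was Pdgfrb (1.09 and 0.888 CPM), the 1 stromal marker tested, which was not called at 6 h (edgeR adjusted p = 0.231). The part of these shifts in the results was not tested. In bulk RNA, fewer cells of a type and less RNA per cell cannot be told apart. A pair of libraries stood apart and are left out by turns below: replicate 2 at 2 h, the deepest, and untreated replicate 2, which held transcripts seen almost nowhere else in the series. Untreated replicate 3 held several of these at lower counts (Sftpc 26 against 227, Ptprb 25 against 327). Leaving out untreated replicate 2 alone therefore does not remove them all.

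After 2 h of LPA, the inducible cyclooxygenase gene Ptgs2 and the phospholipase gene Pla2g4a rose, while the constitutive cyclooxygenase gene Ptgs1 and the co-chaperone gene Ptges3 fell. After 6 h nothing in the set was raised: Pla2g4a, Ptgs1, Ptges, Ptges3 and Tbxas1 had fallen below the untreated level, and Ptgs2 was back near it. Calls were made with the quasi-likelihood test of edgeR at a Benjamini-Hochberg adjusted p of 0.05 over all tested genes. By these, 2 of the 8 tested members rose and 2 fell at 2 h, and 0 rose and 5 fell at 6 h. The count of members that rose at 6 h was also 0 at an unadjusted p of 0.05, with DESeq2 and with limma-voom. Of all genes tested, 19.3% rose and 19.2% fell at 2 h, and 26.4% rose and 25.7% fell at 6 h, so single calls are common in these data. The members' median log2 fold change was -0.03 at 2 h and -0.30 at 6 h, and over all genes tested it was -0.00099 and 0.0073. From 2 h to 6 h, 4 members fell (Pla2g4a, Ptgs2, Ptges and Tbxas1) and 0 rose, where 24.4% of all genes fell and 24.3% rose; the rise count was again 0 at an unadjusted p of 0.05, with DESeq2 and with limma-voom. Both times are compared with the same untreated libraries, and 6 h against 2 h is the test of the difference between them. The 5 falls at 6 h were also called without untreated replicate 2.

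**Figure D1:**
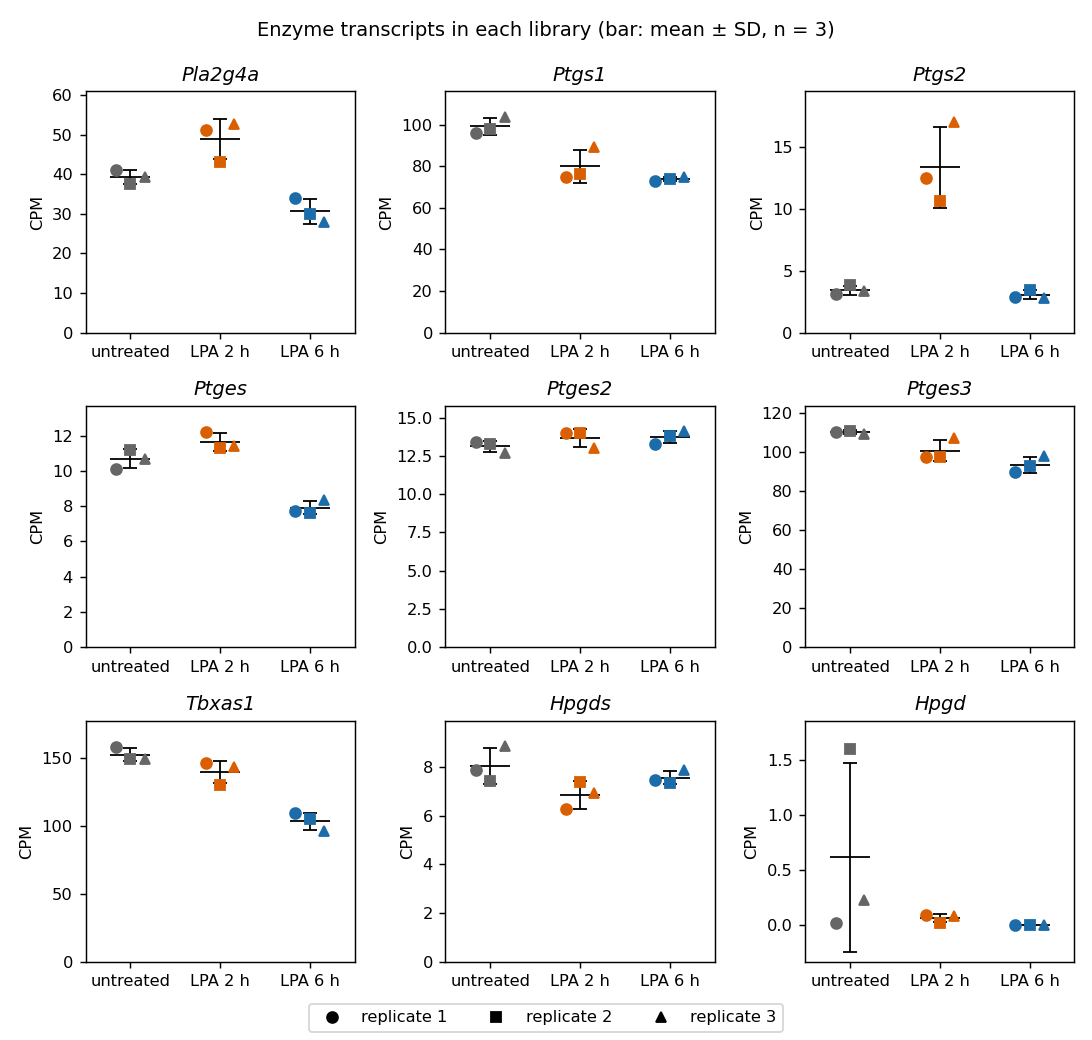
CPM of each enzyme transcript (vertical axes, each starting at 0 except for Hpgd, whose error bar reaches below 0) in the 3 untreated, 3 LPA 2 h and 3 LPA 6 h libraries; symbols are replicates and black bars the mean ± SD. Ptgs2 stands at 10.6 to 17.0 CPM at 2 h and at 2.77 to 3.81 CPM in all other libraries, and Hpgd is seen mainly in untreated replicate 2.

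Ptgs2, which encodes cyclooxygenase-2, the form that cells switch on after stimulation, had 146, 252 and 160 counts in the untreated libraries (3.09, 3.81 and 3.36 CPM). At 2 h it had 703, 898 and 780 counts (12.5, 10.6 and 17.0 CPM), and at 6 h 88, 190 and 178 counts (2.89, 3.45 and 2.77 CPM). All 2 h libraries thus lay above all others, and the untreated and 6 h libraries overlapped. Groups that do not overlap were seen in 48.2% of all tested genes at 2 h against untreated and in 58.9% from 2 h to 6 h. The fold change was 3.86 at 2 h, a log2 fold change of 1.95 ± 0.17 (SE, edgeR adjusted p = 7.62e-06). Leaving out each replicate in turn gave log2 values from 1.745 to 2.095. The highest came without replicate 2 at 2 h, the lowest library of its group. No other member was called with a rise of 1.5-fold or more at 2 h, which 5.96% of all tested genes showed. From 2 h to 6 h Ptgs2 fell by 2.13 ± 0.17 on the log2 scale (edgeR adjusted p = 1.83e-05), and 6 h against untreated gave -0.18, with a 95% interval from -0.58 to 0.23 that leaves room for a change of either sign.

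The sequence at the Ptgs2 start is shown because it is the member that moved most. RefSeq's GRCm38.p6 promoter table held all 9 members. The first line gives the 250 bases before the annotated start on the plus strand, chr1:150099781-150100030, and the second the first 30 bases after it, chr1:150100031-150100060. The third gives the same stretch before Pla2g4a, the other member that rose at 2 h, on the minus strand, chr1:149961291-149961540. Capitals mark matches to the motifs searched on both strands.
Ptgs2 before the start: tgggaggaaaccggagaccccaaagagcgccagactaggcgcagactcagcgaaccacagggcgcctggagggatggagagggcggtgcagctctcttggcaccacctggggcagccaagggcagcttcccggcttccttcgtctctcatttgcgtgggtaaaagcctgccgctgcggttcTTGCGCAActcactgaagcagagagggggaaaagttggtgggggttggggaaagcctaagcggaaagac
Ptgs2 after the start: agagtcaccactaCGTCACGTGgagtccgc
Pla2g4a before the start: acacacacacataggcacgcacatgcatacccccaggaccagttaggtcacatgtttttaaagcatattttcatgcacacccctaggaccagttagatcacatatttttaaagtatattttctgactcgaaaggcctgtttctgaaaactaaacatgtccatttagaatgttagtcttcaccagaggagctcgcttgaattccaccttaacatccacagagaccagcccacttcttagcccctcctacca

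The motifs were a full cAMP response element (TGACGTCA), its shorter core (TGACG), a C/EBP palindrome (TTGCGCAA), an E-box (CACGTG), an NF-kappaB form (GGGANTTCC), the interferon-stimulated response element and a TATA box (TATAAA). Ptgs2 held the C/EBP palindrome from position -69, counted from the start, a match found in 0.183% of 32851 promoter windows of 300 bases and in no other member. It also held the short cAMP element, read on the other strand from position 14, and an E-box from position 17, which share 2 bases. The short cAMP element occurred in 20.8% of windows and in 1 other member, Ptges3, and the E-box in 7.15% and in Ptges2. Pla2g4a matched none of the motifs in its window, and neither the full cAMP element, the NF-kappaB form nor the interferon element was found in any member's window. A match here describes letters only. Positions are counted from the annotated start, and where transcription begins in these cells was not tested.

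The 5 genes below were the most like Ptgs2 over the 9 libraries, by the root mean square difference of log2 CPM after centring each gene on its own mean, among 9780 genes with at least 5 CPM on average. They were the ubiquitin ligase gene Rnf217 (difference 0.238), D16Ertd472e (0.248), the transcription factor gene Ets2 (0.276), Napepld (0.283), whose product makes N-acylethanolamines from membrane lipids, and Cish (0.286), a feedback inhibitor of cytokine signalling. Ptgs2 itself varied with an SD of 1.03 on that scale. Ets2, for example, went from 49.5 ± 4.47 CPM (SD, n = 3) to 186 ± 41.4 at 2 h and 64.2 ± 2.83 at 6 h, and Cish from 7.37 ± 1.14 to 41.6 ± 8.86 and 9.87 ± 0.692 CPM.

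Ptgs2 lies on chromosome 1 from 150100031 to 150108227 (GRCm38, plus strand), and Pla2g4a on the minus strand of the same chromosome from 149829618 to 149961290, so that their starts are 138741 bases apart. A pair of non-coding genes close by was looked at after the values were seen. Ptgs2os, whose start is 68 bases from that of Ptgs2 on the other strand, had 0 to 4 counts per library, too few to test. Ptgs2os2 (150159043 to 150164948, minus strand), which does not overlap Ptgs2, had 15 to 19 counts untreated, 39 to 41 at 2 h and 8 to 19 at 6 h. Its log2 fold change was 1.04 at 2 h (edgeR adjusted p = 0.0167) and -1.15 from 2 h to 6 h (edgeR adjusted p = 0.00876), on few counts.

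Pla2g4a encodes cytosolic phospholipase A2, which releases the arachidonic acid on which the cyclooxygenases work. It stood at 41.0, 37.5 and 39.2 CPM untreated, 51.1, 43.0 and 52.6 CPM at 2 h, and 34.1, 29.9 and 27.9 CPM at 6 h. The 3 groups did not overlap: the 2 h libraries were the highest and the 6 h libraries the lowest. Groups that do not overlap were found in 48.2% of all tested genes at 2 h against untreated, 63% at 6 h against untreated and 58.9% from 2 h to 6 h. At 2 h it rose by 0.32 ± 0.09 on the log2 scale (edgeR adjusted p = 0.0122), but did not pass without untreated replicate 2 (0.28, edgeR adjusted p = 0.0564) or without 2 h replicate 1 (0.28, edgeR adjusted p = 0.0511). Without 2 h replicate 2 the rise was 0.40. At 6 h it fell by 0.36 ± 0.09 against untreated (edgeR adjusted p = 0.00445), and from 2 h to 6 h by 0.68 ± 0.09 (edgeR adjusted p = 1.18e-04).

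Ptgs1 encodes cyclooxygenase-1, the form present in resting cells. Its level was 96.2, 98.0 and 104 CPM untreated, 75.0, 76.2 and 89.2 CPM at 2 h, and 73.2, 74.0 and 74.7 CPM at 6 h. Every treated library lay below every untreated one, with groups that do not overlap in 48.2% of all tested genes at 2 h and 63% at 6 h. Ptgs1 fell by 0.31 ± 0.06 at 2 h (edgeR adjusted p = 0.00177) and by 0.43 ± 0.06 at 6 h (edgeR adjusted p = 1.18e-04). The step from 2 h to 6 h, -0.12 with a 95% interval from -0.25 to 0.02, did not pass (edgeR adjusted p = 0.149). Of its exons, 148 bases overlap those of Gm43621 on the other strand, and these unstranded libraries cannot separate reads of the overlap.

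Compared per length, with each gene's CPM divided by the mean length of the transcripts in its row, Ptgs2 made up 1.08%, 1.30% and 1.09% of the cyclooxygenase transcripts (Ptgs1 plus Ptgs2) in the untreated libraries. At 2 h its share was 5.35%, 4.50% and 6.05%, and at 6 h 1.32%, 1.55% and 1.24%. Ptgs1 thus remained the main cyclooxygenase transcript in every library. The share rose by 4.14 percentage points on average at 2 h, with no overlap between the groups (exact two-sided permutation test, p = 0.1, the smallest that 3 against 3 allows), and 6 h against untreated gave 0.218 points (exact p = 0.2). The share depends on the length used: with the union of exons the 2 h mean was 12.3% and with the longest transcript 9.61%, against 2.84% and 2.17% untreated.

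Of the prostaglandin E synthase genes, Ptges fell at 6 h and not at 2 h by the test, Ptges3 fell slightly at both times and Ptges2 passed no test. Ptges encodes the microsomal, inducible enzyme that is usually coupled to cyclooxygenase-2. It stood at 10.1, 11.2 and 10.7 CPM untreated, 12.2, 11.3 and 11.4 CPM at 2 h, and 7.75, 7.62 and 8.33 CPM at 6 h. The 2 h libraries were just above the untreated ones, a log2 fold change of 0.12 with a 95% interval from -0.03 to 0.27 (edgeR adjusted p = 0.201), and the 6 h libraries were below all others. Of all tested genes, 48.2% had groups without overlap at 2 h against untreated, 63% at 6 h against untreated and 58.9% from 2 h to 6 h. Ptges fell by 0.44 ± 0.07 at 6 h against untreated (edgeR adjusted p = 2.89e-04) and by 0.56 ± 0.07 from 2 h to 6 h (edgeR adjusted p = 9.84e-05).

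Ptges2 encodes a second, membrane-associated form. Its libraries ran from 12.7 to 13.4 CPM untreated, 13.0 to 14.0 at 2 h and 13.3 to 14.1 at 6 h, overlapping in each comparison. The 95% intervals of its log2 fold change, -0.07 to 0.19 at 2 h and -0.06 to 0.20 at 6 h, keep any change small. Ptges3 encodes the Hsp90 co-chaperone p23, which also has prostaglandin E synthase activity. It stood at 110, 111 and 109 CPM untreated, 97.6, 97.4 and 107 CPM at 2 h and 89.8, 92.9 and 97.8 CPM at 6 h. It fell by 0.24 ± 0.05 at 6 h (edgeR adjusted p = 0.00154). The smaller fall at 2 h, -0.13 ± 0.05, sat at the threshold (edgeR adjusted p = 0.0493) and was lost in 7 of the 16 alternatives, among them leaving out any untreated replicate or 2 h replicate 1 or 2. A processed copy, Ptges3-ps, has its own row in the table, so the division of reads between the copies is uncertain.

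**Figure D2:**
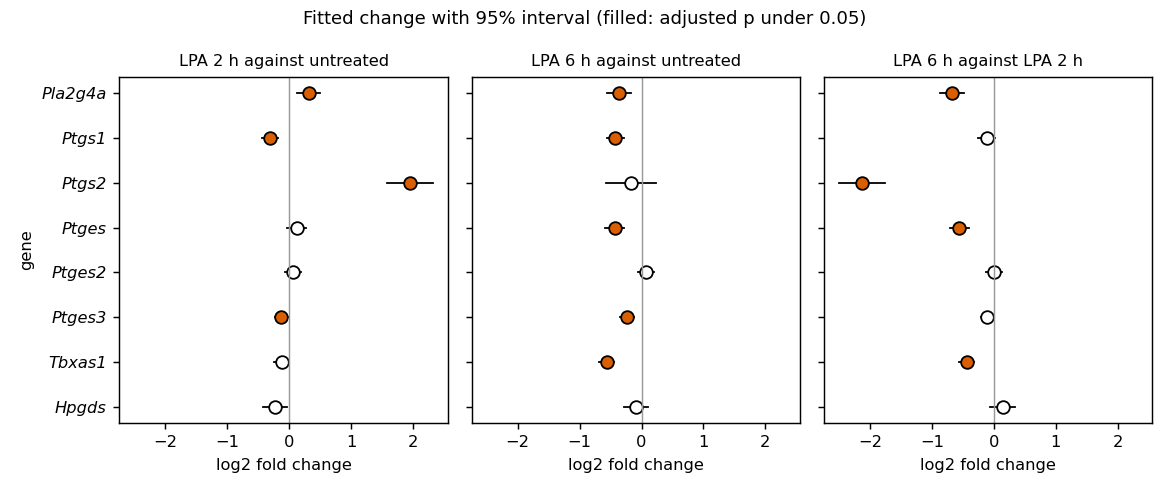
Log2 fold change (horizontal axis) of the 8 tested genes in the 3 comparisons, with 95% intervals; filled circles passed edgeR's test at an adjusted p of 0.05. Ptgs2 is the one gene beyond a log2 change of 1, at 1.95 at 2 h and -2.13 from 2 h to 6 h, while the 6 h panel against untreated holds 5 small falls.

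Tbxas1 encodes thromboxane synthase, which makes thromboxane A2, an agonist of platelets and smooth muscle. It stood at 158, 149 and 149 CPM untreated, 146, 130 and 143 CPM at 2 h, and 109, 105 and 96.3 CPM at 6 h. The 3 groups did not overlap. Such separation was common: 48.2% of all tested genes showed it at 2 h against untreated, 63% at 6 h against untreated and 58.9% from 2 h to 6 h. At 2 h the log2 fold change was -0.12 and did not pass (edgeR adjusted p = 0.102), and -0.08 without 2 h replicate 2. At 6 h Tbxas1 fell by 0.56 ± 0.06 (edgeR adjusted p = 6.06e-06), the largest fall of a tested member against untreated, and it fell by 0.44 ± 0.06 from 2 h to 6 h (edgeR adjusted p = 1.04e-04). Its exons share 144 bases with Gm42962 on the other strand.

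Hpgds encodes the hematopoietic prostaglandin D synthase. Its level was 7.86, 7.42 and 8.87 CPM untreated, 6.26, 7.37 and 6.92 CPM at 2 h, and 7.46, 7.35 and 7.86 CPM at 6 h. The 2 h libraries lay just below the untreated ones, a log2 fold change of -0.23 ± 0.09 that missed the threshold (edgeR adjusted p = 0.0629) and passed without untreated replicate 2 (-0.29, edgeR adjusted p = 0.043) and without 2 h replicate 2 (-0.29, edgeR adjusted p = 0.0295). Separation from the untreated libraries at 2 h was seen in 48.2% of all tested genes. At 6 h the groups overlapped, with a 95% interval from -0.29 to 0.11. Ptgds, the other prostaglandin D synthase gene, had no count in the untreated and 2 h libraries.

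Hpgd, which encodes the enzyme that inactivates prostaglandins, was nearly absent apart from 1 library. It had 1, 106 and 11 counts untreated, 5, 2 and 4 counts at 2 h, and 0 in each 6 h library, where a count of 0 allows up to 0.0467 to 0.0986 CPM (3 counts, counting error only). Untreated replicate 2 alone reached 1.60 CPM. The same library was also the highest of the 9 for 8 of 10 lung epithelial markers and 9 of 10 endothelial markers, lists chosen after the values were seen. The surfactant gene Sftpc had 0, 227 and 26 counts in the untreated libraries and 0 to 4 elsewhere, and the tight junction gene Cldn5 had 0, 154 and 6 counts untreated and 0 to 6 elsewhere. The sums are less clear, because Napsa and Kdr are high throughout. Lung epithelial markers summed to 169 CPM in untreated replicate 2 and to 158 to 195 CPM in the others, mostly from Napsa, which had 5501 or more counts in every library. Endothelial markers summed to 54.6 CPM there, above 34.6 and 28.6 CPM in the other untreated libraries and 23.4 to 37.0 CPM at 2 h, and below the 56.3 to 65.2 CPM at 6 h, where Kdr alone gave 50.6 to 59.6 CPM. The part of these transcripts in the Hpgd counts was not tested, and no fold change is given for Hpgd. The prostaglandin transporter gene Slco2a1, from the fixed pathway list, had the same pattern, at 4, 207 and 8 counts untreated and 1 to 5 counts in the treated libraries.

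**Figure D3:**
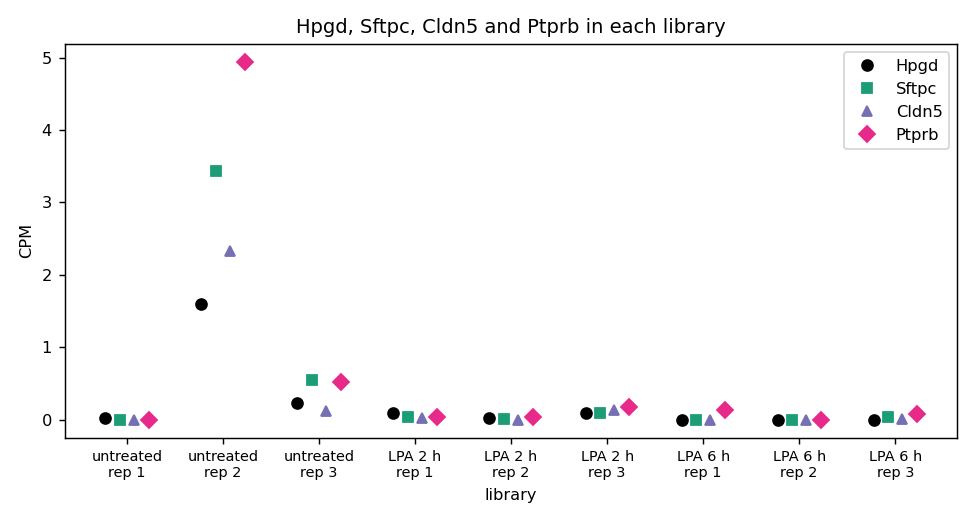
CPM (vertical axis) of Hpgd, the surfactant gene Sftpc and the endothelial genes Cldn5 and Ptprb in each of the 9 libraries (horizontal axis). All 4 are highest in untreated replicate 2, where Hpgd is at 1.60 CPM, and low in the rest.

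Levels per kb of transcript were ordered first with the mean transcript length. In untreated cells Ptges3 led at 83.1 ± 0.775 CPM per kb (SD, n = 3), then Tbxas1 at 75.1 ± 2.41, Ptgs1 at 65.8 ± 2.65 and Pla2g4a at 20.2 ± 0.895. Ptges followed at 8.01 ± 0.413, Ptges2 at 6.28 ± 0.168, Hpgds at 4.13 ± 0.381, Ptgs2 at 0.769 ± 0.0811 and Hpgd at 0.367 ± 0.510, and only the last pair overlapped between libraries. At 2 h Ptgs2 reached 3.00 ± 0.733 CPM per kb and overlapped Hpgds at 3.52 ± 0.287. At 6 h Ptges (5.92 ± 0.282) came below Ptges2 (6.58 ± 0.194), and Tbxas1 (51.0 ± 3.12) overlapped Ptgs1 (49.0 ± 0.495). With the longest transcript as length, Ptgs1 and Tbxas1 overlapped in untreated cells (34.6 and 33.3 CPM per kb), and at 6 h Ptgs1 (25.8 ± 0.261) lay above Tbxas1 (22.6 ± 1.39) without overlap. At 2 h that length put Ptgs2 (3.00 ± 0.733) above Hpgds (1.76 ± 0.144) without overlap, and among Ptges (3.19 ± 0.138) and Ptges2 (2.74 ± 0.120), which it overlapped. The order of these genes thus depends on the length chosen.

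**Figure D4:**
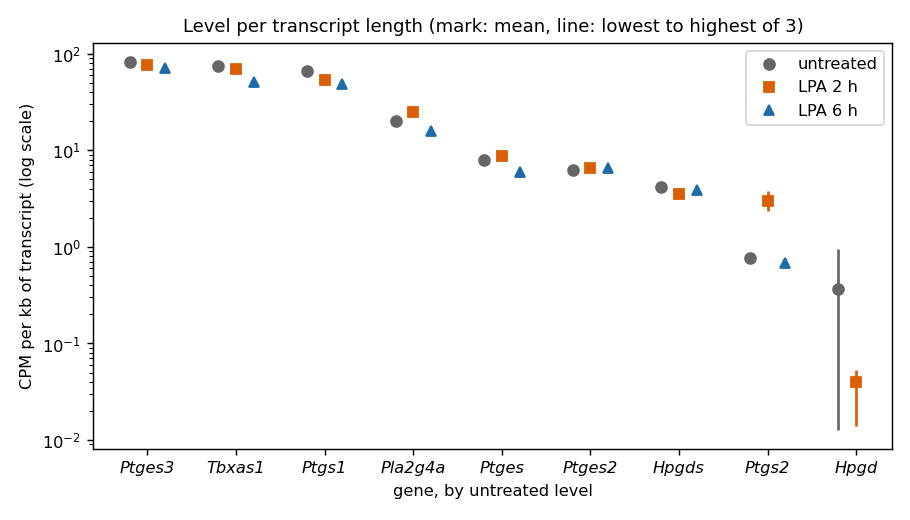
Mean CPM per kb of transcript (vertical axis, log scale) of each gene in untreated, LPA 2 h and LPA 6 h cells, with lines from the lowest to the highest of 3 libraries; Hpgd at 6 h was 0 and is not drawn. Ptgs2 moves from 0.769 to 3.00 and back to 0.682, while Ptges3, Tbxas1 and Ptgs1 stay the 3 highest.

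Around these enzymes, 62 further genes of arachidonate and prostanoid handling were followed, of which 49 were tested. At 2 h 9 of them rose and 11 fell (median log2 fold change -0.02), and at 6 h 12 rose and 23 fell (median -0.16). Of all tested genes, 19.3% rose and 19.2% fell at 2 h and 26.4% rose and 25.7% fell at 6 h, so the 2 h counts of the 49 are near the share over all genes. The counts by list below rest on few genes and are read against the same shares. Among 19 tested genes of phospholipases and arachidonate handling, 6 rose and 4 fell at 2 h and 6 rose and 6 fell at 6 h. Daglb, a diacylglycerol lipase gene, fell from 61.6 ± 2.57 to 45.1 ± 4.20 CPM at 2 h, and the lysosomal phospholipase gene Pla2g15 from 66.7 ± 2.51 to 47.2 ± 6.29 CPM. At 6 h the phospholipase gene Pla2g4f fell from 7.04 ± 0.870 to 1.84 ± 0.0654 CPM. Mgll, whose monoacylglycerol lipase frees arachidonic acid from 2-arachidonoylglycerol, fell from 190.3 ± 17.8 to 81.95 ± 1.99 CPM. Of 12 tested other prostanoid synthase and reductase genes, 2 rose and 1 fell at 2 h and 2 rose and 7 fell at 6 h. In that group the prostaglandin reductase gene Zadh2 fell by 0.46 ± 0.04 on the log2 scale at 2 h and by 0.56 ± 0.04 at 6 h, and the peroxidase gene Gpx4 rose by 0.19 ± 0.05 at 2 h. The peroxiredoxin gene Prdx1 fell by 0.78 ± 0.07 at 6 h.

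Against 19.2% of all tested genes that fell at 2 h and 25.7% at 6 h, and 19.3% and 26.4% that rose, the counts of the remaining lists were as follows. Among 6 tested receptor genes (Pparg, a nuclear receptor, among them), 1 rose and 4 fell at 2 h, and 5 fell at 6 h. The prostacyclin receptor gene Ptgir fell by 1.25 ± 0.08 on the log2 scale at 2 h and by 0.81 ± 0.08 at 6 h. Ptger4, which encodes a cAMP-raising prostaglandin E2 receptor, went from 34.5 ± 1.02 to 22.1 ± 1.48 CPM at 2 h and 27.4 ± 0.606 CPM at 6 h. Of 4 tested transporter genes none passed edgeR's test at 2 h, where the lowest unadjusted p was 0.299, and at 6 h 2 rose and 2 fell. The exporter gene Abcc4 fell by 0.43 ± 0.06 and Abcc1 by 1.34 ± 0.09. The rises, named after their values were seen, were those of the organic anion transporter genes Slco2b1, from 1.35 ± 0.209 to 4.21 ± 0.627 CPM (log2 fold change 1.64 ± 0.26, edgeR adjusted p = 3.69e-04), and Slco3a1 (0.18 ± 0.06, edgeR adjusted p = 0.0257). In the lipoxygenase branch, which turns the same acid into leukotrienes, 2 of 8 tested genes fell at 2 h, and 2 rose and 3 fell at 6 h. The 5-lipoxygenase gene Alox5 fell from 26.1 ± 1.70 CPM to 20.5 ± 2.54 at 2 h and 11.4 ± 0.143 CPM at 6 h, and the leukotriene receptor gene Cysltr1 from 19.6 ± 0.674 to 11.6 ± 1.31 and 9.55 ± 0.697 CPM.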

How the data were processed

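For the 9 RNA-seq libraries the authors deposited a single matrix of estimated counts, 1 column each, as whole numbers without any scaling. RSEM 1.2.3, DESeq2 and mm10 are listed per the submitters' processing notes; aligner and annotation: not given in the sources used here. The TruSeq mRNA libraries were unstranded, per the labels' protocols. Row names are transcript identifiers, and 37776 of 38887 rows matched exactly 1 gene of GENCODE M21 (GRCm38). In R 4.3.3, edgeR 4.0.16 filtered genes with filterByExpr (minimum count 10, minimum total 15), applied TMM scaling and fitted all libraries together, 1 mean per group (glmQLFit, robust; glmQLFTest). Each SE was taken as the size of the log2 fold change over the root of F. Members and lists were chosen with earlier results of these data known. The text names all 9 members, the 2 called genes of smallest p per pathway list and time, and the 5 genes nearest to Ptgs2 in pattern (3 for any other member called against untreated with a 1.5-fold change; there was none).

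Deviations of same-numbered libraries correlated at 0.14 to 0.18 for 6 h against untreated, all over 0.1, a pairing that comes from the data and not the labels. In the other comparisons 1 pair fell short (0.09 and 0.035). No replicate repeated another: chi-square over degrees of freedom was 7.35 to 33.7. Tested on simulated counts of 14286 genes, the fit called 91% of 1.5-fold changes at 2 h and 86.6% at 6 h, and 7.62% and 4.06% of its calls were false. The simulation changed 67 genes by 1.5-fold, 67 by 2-fold and 66 by 4-fold. In the data 5525 genes were called at 2 h and 7472 at 6 h, so these rates need not carry over. Apart from that of Ptgs2, the member calls against untreated were of changes under 1.5-fold, a size not simulated.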

Additional observations from a re-analysis of the deposited data

Results flagged for a closer look

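Levels at 2 h and 6 h of LPA differed for 4 members by the direct test of 6 h against 2 h (edgeR's quasi-likelihood test, Benjamini-Hochberg adjustment over all genes). No time is stated for the untreated cells, so a change in the effect of LPA and one with time in culture cannot be told apart. The log2 fold change was -2.125 for Ptgs2 (adjusted p = 1.83e-05), which was above untreated at 2 h only. It was -0.6778 for Pla2g4a (adjusted p = 1.18e-04), which was above untreated at 2 h and below it at 6 h. Ptges had -0.5553 (adjusted p = 9.84e-05) and Tbxas1 -0.4362 (adjusted p = 1.04e-04), and both were called against untreated at 6 h. In each of these 4 genes all 3 libraries at 6 h lay below all 3 at 2 h, as groups that do not overlap in either direction did in 58.9% of tested genes. No group was large enough for a search for single outlying samples.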

How the results depend on the processing

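Each comparison was recomputed under 16 alternatives, and the number of genes called stayed within 1.5 times the reported one in each. Over the 8 tested members, 371 of 384 recomputed tests kept their direction and side of the threshold, 9 lost a call, 4 gained one and 0 reversed. At 2 h the count of members that fell went from 2 to 1 with no filter on low counts and with only the 6 libraries compared, and ranged from 1 to 2 when leaving out each replicate in turn, as did the count that rose. At 6 h leaving out replicates gave 5 to 6 falls, and for 6 h against 2 h 4 to 5, Hpgd counted where it could be tested. The cause was not tested. With the replicate number as a block, Tbxas1 at 2 h passed (-0.13, adjusted p = 0.0492), and no call at 6 h against untreated changed. Hpgd, tested only under some alternatives, was called lower than untreated by DESeq2 (adjusted p = 0.0218 at 2 h and 3.14e-05 at 6 h). It was also called by edgeR without untreated replicate 1 (adjusted p = 0.0313 and 0.0113), but not by edgeR without a filter (adjusted p = 0.292 and 0.141). Leaving out untreated replicate 1 (1 Hpgd and 0 Sftpc counts) kept replicates 2 and 3, with 106 and 11 Hpgd and 227 and 26 Sftpc counts. These calls therefore rest on the libraries that held the lung epithelial and endothelial transcripts. The share of Ptgs2 among cyclooxygenase transcripts changed by 9.43 percentage points at 2 h, 0.525 at 6 h and -8.91 from 2 h to 6 h with the union of exons as length, and by 7.43, 0.405 and -7.03 with the longest transcript, a length chosen after seeing the data; leaving out replicates gave 3.77 to 4.54, 0.127 to 0.291 and -4.32 to -3.55. Hpgd and Ptgs2os held too few counts to pass the filter on low counts. In the deepest library, replicate 2 at 2 h, Hpgd had 2 counts, against 106 in untreated replicate 2.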
